A study of Caenorhabditis elegans with 2 samples.

Results

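Divergent gene pairs are neighbours on opposite strands that are transcribed away from each other, so that the stretch between their 5′ ends can serve as the promoter of both. Every such pair of nuclear protein-coding genes of Caenorhabditis elegans was taken whose annotated 5′ ends lay at most 1000 bp apart, with no other protein-coding gene between them. The region of a pair ran from one 5′ end to the other with 200 bp added on each side. This gave 1720 regions holding 3439 of the 19973 nuclear protein-coding genes, with a median of 474 bp between the ends. The rule used positions in the annotation only and no measured value. Sites of the tagged protein were found in 86 of the 1720 regions.

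The sites came from chromatin immunoprecipitation with sequencing (ChIP-seq), which recovers the DNA fragments bound to a chosen protein with an antibody and reads them. There was 1 group of 2 biological replicates, both whole mid-embryos aged 3.5 hours, synchronised by egg bleaching, of the transgenic strain OP787. An antibody against green fluorescent protein (GFP) pulled down a fusion protein. The labels name its target as tab-1, a homeobox gene, but the genotype in the same labels carries the TY1, EGFP and 3xFLAG tags on T27A8.2, in the insertion wgIs787 with an unc-119(+) marker on an unc-119(tm4063) background; the samples are therefore called labelled tab-1. The chromatin came from all tissues of the embryo together, and no untagged or input sample was analysed here.

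A shared promoter of this kind is usually short and free of nucleosomes, and transcription starts on both of its edges, once in each direction. In C. elegans many transcripts receive a spliced leader, which removes the first bases of the RNA, so that an annotated 5′ end can lie downstream of the true start. Many tandem genes of this worm form operons, whose downstream genes are transcribed from a promoter further upstream. Divergent pairs in animals often hold genes used by every cell, for example for mitochondria, translation or the cell cycle.

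A site was a peak, or several overlapping peaks merged, of the authors' conservative list, placed by its summit and kept when the summit lay over 200 bp from any tRNA, snoRNA, snRNA or miRNA gene. The 935 sites kept were compared with 76990 merged candidates of the ranked list from which the conservative list was taken. Over all of these candidates, 1.21% overlapped a site of the list. The irreproducible discovery rate (IDR), which is low where a peak ranks alike in the sets of peaks compared, set the threshold of that list. The signal printed below is the value the authors' peak caller gave each peak; its scale is not stated, so it was used to describe and order sites within the list. The read depth is unknown. With 1 group there was no contrast to test, and all shares below are descriptions with 95% Wilson intervals, which cover counting error over regions or sites and not the spread between embryos.

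The DNA of 8 of the 10 strongest sites in divergent regions is shown first. The words counted below can thus be seen beside the summits. The sites at spe-48/Y51F10.11 and dnj-29/ndua-2, also among the 10, are not printed. Each line gives up to 60 bases on either side of the summit, cut where a gene's 5′ end was reached, as the plus strand read 5′ to 3′ from the RefSeq sequence of WBcel235 (ce11). Each line names the minus-strand gene first. Capitals mark GCGGC followed after 4 bases by TTGC, on either strand, and CCGCCC on either strand. Of the 8 lines 3 hold the former and 5 the latter, while E04F6.6/pcrg-1 and B0495.9/sre-1 hold neither. The windows lie at chrIII:4568670-4568790, chrIII:10461265-10461385, chrIV:390469-390559, chrII:7200194-7200314, chrIII:10759189-10759306, chrIII:5555072-5555192, chrIII:4171120-4171240 and chrII:7708729-7708849, in the order printed. All 8 lie between genes, upstream of both members of the pair, with the summit at base 61 of the line except in ears-2/uncp-18, where it is base 33.
mlcd-1/idhg-1: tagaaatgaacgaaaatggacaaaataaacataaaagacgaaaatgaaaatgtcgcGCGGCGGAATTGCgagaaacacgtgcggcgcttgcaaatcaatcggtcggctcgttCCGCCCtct
ecps-1/atx-2: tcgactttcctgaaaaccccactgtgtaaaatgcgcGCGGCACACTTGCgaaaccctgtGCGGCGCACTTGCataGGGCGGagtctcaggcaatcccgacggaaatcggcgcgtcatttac
ears-2/uncp-18: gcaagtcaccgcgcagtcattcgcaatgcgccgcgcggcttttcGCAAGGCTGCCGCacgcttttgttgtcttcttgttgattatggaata
E04F6.6/pcrg-1: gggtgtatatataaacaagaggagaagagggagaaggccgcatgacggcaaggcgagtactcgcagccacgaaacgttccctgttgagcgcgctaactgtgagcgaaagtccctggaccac
K01G5.10/tasp-1: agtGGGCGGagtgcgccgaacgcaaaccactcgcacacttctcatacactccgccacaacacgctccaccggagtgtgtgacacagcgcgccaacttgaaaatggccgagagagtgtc
nmad-1/hach-1: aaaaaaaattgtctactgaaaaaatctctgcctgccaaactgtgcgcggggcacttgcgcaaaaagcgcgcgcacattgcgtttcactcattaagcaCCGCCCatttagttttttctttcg
rnf-121/C16C10.4: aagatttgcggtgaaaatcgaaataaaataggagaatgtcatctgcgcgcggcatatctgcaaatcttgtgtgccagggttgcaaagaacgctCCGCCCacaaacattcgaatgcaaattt
B0495.9/sre-1: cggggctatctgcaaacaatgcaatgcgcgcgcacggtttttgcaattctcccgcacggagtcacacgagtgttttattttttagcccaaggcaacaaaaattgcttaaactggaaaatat

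Sites were more frequent between divergent genes than between neighbours in other orientations. Of the 1720 divergent regions 86 held a site (5%, 4.07 to 6.13), and no region held more than 1. Tandem neighbours, on the same strand with facing ends at most 1000 bp apart, held a site in 71 of 5555 regions (1.28%, 1.02 to 1.61). A site lying in both a divergent and a tandem region counted as divergent only, so the tandem counts leave out any such site. Convergent neighbours, which face each other with their 3′ ends, held one in 10 of 1807 (0.553%, 0.301 to 1.02). Tandem and convergent regions together came to 81 of 7362 (1.1%). Per length of region the order was the same, with 56.0 sites per Mb between divergent genes, 15.8 between tandem genes and 7.28 between convergent genes. From the own thresholded list of replicate 2, without replicate 1, 67 of 1720 divergent regions (3.90%) and 47 of 5555 tandem regions (0.846%) held a site. From that of replicate 1, without replicate 2, it was 36 (2.09%) and 16 (0.288%). The divergent share was the higher one in both.

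A divergent region has a 5′ end on both sides, while a tandem one has a single 5′ end. Counted per 5′ end, divergent regions had 2.5 sites per 100 ends (2.03 to 3.08) and tandem regions 1.28 per 100. Tandem gaps were also shorter, with a median of 356 bp. When gaps up to 250 bp were left out of both, 74 sites remained over 2700 divergent ends (2.74 per 100, 2.19 to 3.43) and 57 over 3376 tandem ends (1.69 per 100, 1.3 to 2.18). The intervals per end then lay close together, and the part that operons play in the tandem rate was not tested.

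Candidates were spread more evenly than sites. The ranked list had 882 merged candidates per Mb in divergent regions, 670 in tandem and 626 in convergent ones. Of the 1356 candidates in divergent regions, 86 overlapped a site of the list (6.34%, 5.16 to 7.77), against 1.21% of all candidates. In promoters of a single gene, meaning from 1000 bp before to 200 bp after a transcript's 5′ end, 300 of 17943 did so (1.67%, 1.49 to 1.87). Outside promoters the share was 0.932%. Divergent regions thus held 9.20% of the sites (7.51 to 11.2) and 1.76% of the candidates. Without replicate 1 they held 15.95% of replicate 2's own sites, and 4.94% of their candidates were in its list. Without replicate 2 these shares were 16.4% and 2.66%.

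Sites occurred at every distance between the 5′ ends. A site was found in 12 of 370 regions with ends 1 to 250 bp apart (3.24%), in 38 of 539 with 251 to 500 bp (7.05%), in 20 of 467 with 501 to 750 bp (4.28%) and in 16 of 344 with 751 to 1000 bp (4.65%). The intervals of neighbouring classes overlapped throughout. In each of these classes the divergent share lay above the tandem share, which ran from 0.642% to 1.84%. At the limit of the rule, 3 of the 62 regions with ends 951 to 1000 bp apart held a site, and 1 of the 52 pairs just outside it, at 1001 to 1050 bp.

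**Figure D1:**
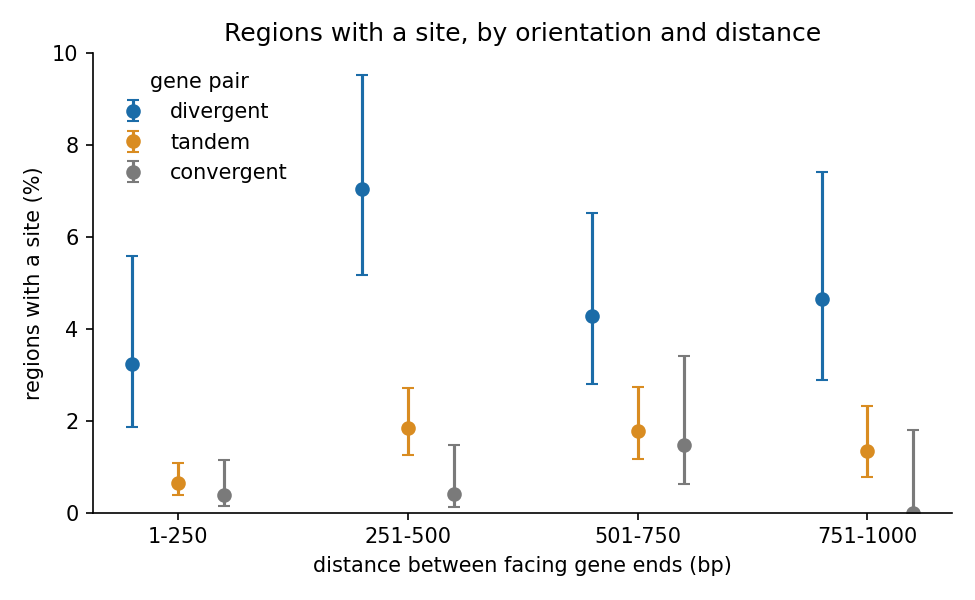
Share of regions with a site (%) against the distance between the facing gene ends (bp, 4 classes), for divergent, tandem and convergent pairs. Points are shares and bars 95% Wilson intervals; the divergent points run from 3.24% to 7.05% and lie above the tandem and convergent points in every class.

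The X chromosome had few such pairs, 79 of the 1720, of which 3 held a site (3.80%, 1.3 to 10.6). On the autosomes it was 83 of 1641 (5.06%, 4.10 to 6.23). Shares per autosome ran from 3.82% on chromosome V to 7.23% on chromosome I, where 23 of 318 regions held a site. The divergent-region sites on chromosome III had the highest median signal, 170.2, and 8 of the 16 strongest of the 86 lay there.

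Summits lay mostly in the gap between the 5′ ends. Of the 86 sites, 72 had the summit between the ends (83.7%, 74.5 to 90.0), compared with 679 of the 1270 candidates in the same regions that were outside the list (53.5%, 50.7 to 56.2). The median distance to the nearer 5′ end was 105.5 bp, and 61 of the 86 summits (70.9%) lay within 150 bp of one. Candidates outside the list were similar in this, with a median of 115.5 bp and 828 of 1270 (65.2%) within 150 bp. The most populated stretch was 50 to 100 bp upstream of the nearer 5′ end, with 19 sites (22.1%). Within the gap there was little preference for the centre. Of the 72 summits between the ends 43 (59.7%) fell in the central 50% of the gap, and 55.4% of the candidates outside the list did.

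The distance to the nearer end grew with the gap, for sites and for candidates. In part it must, since a summit between the ends is never further from the nearer one than the middle is. Its median was 25 bp in gaps up to 250 bp, 103 bp in gaps of 251 to 500 bp, 154 bp in gaps of 501 to 750 bp and 200.5 bp above that. The medians of all candidates in the same classes were 70, 100, 134 and 150.5 bp. In the 838 bp gap of ecps-1 and atx-2, for example, the summit was 64 bp from atx-2 and 774 bp from ecps-1.

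The 14 summits outside the gap lay just inside one of the genes, 11 in the plus-strand gene and 3 in the minus-strand gene. By the Ensembl annotation 10 of them fell in a 5′ UTR exon, 3 in a coding exon and 1 in an intron. The 3 in coding exons were at ift-43/mdt-26, whose summit was 16 bp inside mdt-26, at glp-4/Y87G2A.16, 65 bp inside glp-4, and at pde-6/Y95B8A.6, 2 bp inside pde-6. The last was the weakest of all 86, with a signal of 61.25.

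**Figure D2:**
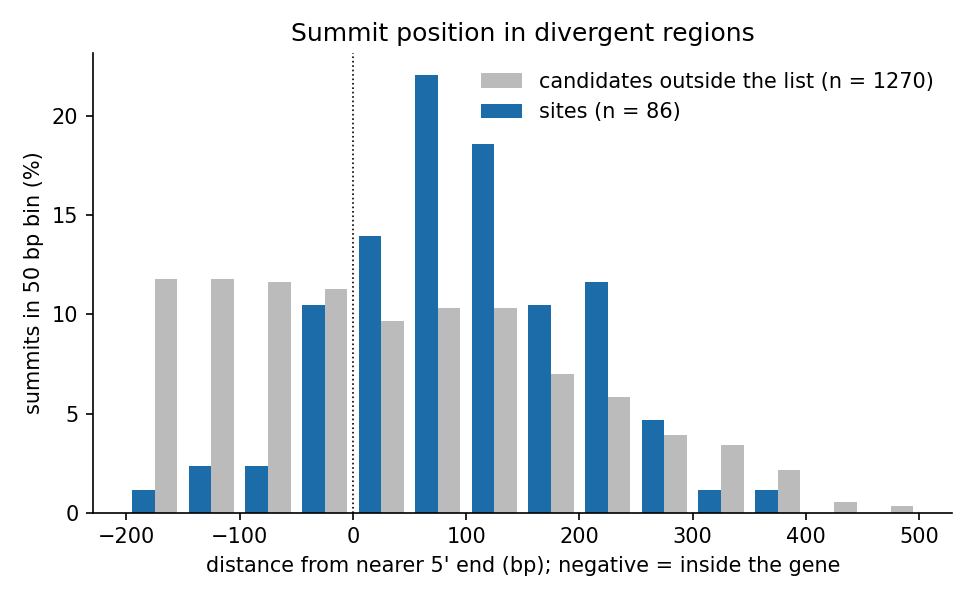
Distance of the summit from the nearer 5′ end (bp, 50 bp bins, negative inside the gene) for the 86 sites and for the 1270 candidates of the same regions outside the list, as a share of each (%). Sites peak at 50 to 100 bp before the gene (22.1%), while the 50 bp bins of the candidates hold 9.69% to 11.8% each from 200 bp inside the gene to 150 bp before it.

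Among the 935 sites kept, those in divergent regions were also often among the strongest. Their signal ran from 61.25 to 491 with a median of 114.1, against 89.9 for the 300 sites in promoters of a single gene and 84.6 for the 528 outside promoters. Tandem regions had a median of 92.96 and convergent ones 92.49. Of the 50 strongest of the 935 sites 15 lay in divergent regions (30%, 19.1 to 43.8), as did 9 of the next 50 (18%) and 21 of those ranked 101 to 200 (21%). Among ranks 601 to 935 it was 16 of 335 (4.78%). With the 331 sites at small RNA genes included, the strongest divergent-region site had rank 24 of 1266. A signal of 200 or more was found in 16 of the 86 (18.6%) and in 19 of the 300 single-gene promoter sites (6.33%). Across the 86 sites the signal rose only weakly with the gap (Spearman's rho 0.23, n = 86, a description over sites of the same 2 libraries).

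**Figure D3:**
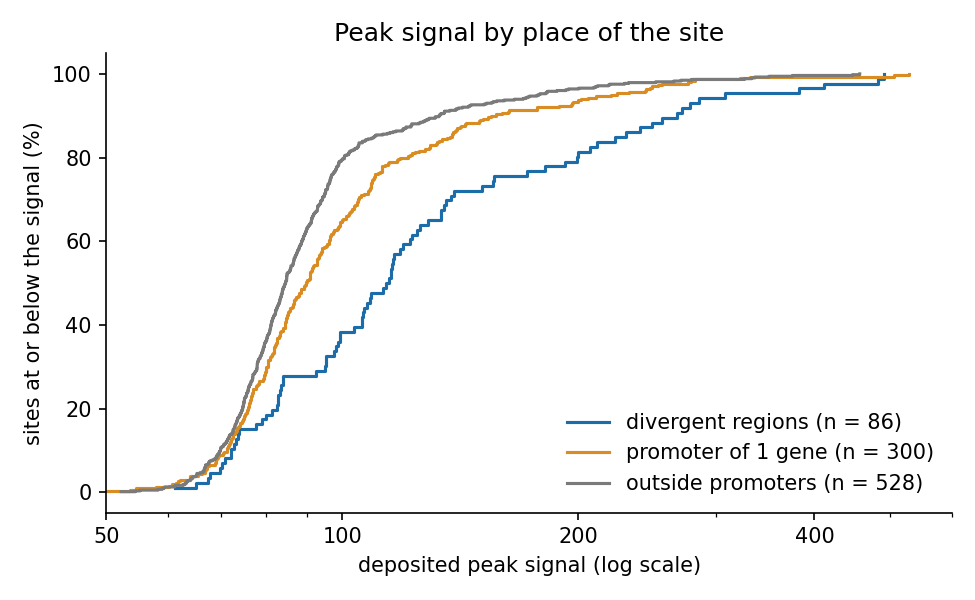
Cumulative share of sites (%) against the deposited peak signal (log scale) for sites in divergent regions, in the promoter of 1 gene and outside promoters. The divergent curve lies to the right, with a median of 114.1 against 89.9 and 84.6.

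The 30 strongest of the 86 divergent-region sites are described by the RefSeq products of their genes. The order in which they are taken up was chosen after the values were seen, and the share of such genes over all 1720 regions was counted only for the lists given further below. The highest signal among them, 491, lay between mlcd-1, which encodes malonyl-CoA decarboxylase, and idhg-1, a subunit of the NAD-dependent isocitrate dehydrogenase of the citric acid cycle. In the replicates' own ranked lists it had 210.7 in replicate 1 and 276.3 in replicate 2. The site between ears-2, a mitochondrial glutamyl-tRNA synthetase, and uncp-18, a syntaxin-binding protein, had a signal of 411.4, with 150.4 in replicate 1 and 248.9 in replicate 2. Its gap was 92 bp, so that the summit was 33 bp from ears-2 and 59 bp from uncp-18. Both partners of the mitochondrial chaperonin shared 1 promoter: Y22D7AL.10, annotated as the 10 kDa heat shock protein, and hsp-60 flanked a site of signal 239.9 (92.56 in replicate 1, 136.8 in replicate 2).

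Other pairs with a mitochondrial gene were hach-1, a hydrolase of valine breakdown, opposite the DNA demethylase homolog nmad-1 (277.4), and ndua-2, a subunit of respiratory complex I, opposite the J-domain gene dnj-29 (267.1). Further down were mtss-1, the mitochondrial single-stranded DNA-binding protein, opposite the chondroitin synthase gene mig-22 (206.8), haf-6, an ABC transporter, opposite smg-2 (172), and W04C9.2, a subunit of the MICOS complex of the inner membrane, opposite W04C9.6 (135.7). Each of these 5 sites had a higher signal in replicate 2 than in replicate 1. The smg-2 product is the helicase of nonsense-mediated decay, which destroys messages with early stop codons.

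The second highest signal, 481.6, lay between ecps-1, a relative of the proteasome adaptor Ecm29, and atx-2, the ataxin-2 homolog that binds RNA, with 232.5 in replicate 1 and 261.7 in replicate 2. The E3 ubiquitin ligase gene rnf-121 and C16C10.4, a SAP18 homolog, shared a site of 271. The proteasome lid subunit gene rpn-7 and F49C12.9 shared one of 156.3, and the ubiquitin-conjugating enzyme gene ubc-6 and aka-1 one of 138.6. The ubiquitin hydrolase gene math-33 stood opposite erfa-3, a translation release factor, with 137.7; this site was found in replicate 1 at 69.89 and in no ranked peak of replicate 2.

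Genes of the secretory pathway were found at algn-13 with R10D12.13 (230.3), where algn-13 encodes a subunit of the enzyme that adds the second sugar of N-glycans, and at dad-1 with tre-1 (222.9), where dad-1 encodes a subunit of oligosaccharyltransferase and tre-1 a trehalase. Lower signals lay at cogc-2, a Golgi tethering subunit, with the meiotic kinesin gene klp-18 (150.6), and at spcs-2, a subunit of signal peptidase, with the chromodomain gene mrg-1 (133.6). At algn-13 the replicates had 83.12 and 142.6, and at dad-1 84.96 and 138.5. Replicate 2 was the higher in both.

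Among the other pairs were krr-1, which acts in the small ribosomal subunit processome, with gei-6 (248.5), cdk-9, the kinase that releases paused RNA polymerase II, with the hexokinase gene hxk-2 (155.5), and mdt-26, a Mediator subunit, with ift-43 (133.7). The centriole assembly gene sas-5 stood opposite piit-1 (199.4) and the importin gene ima-1 opposite the protease gene dvc-1 (181.5). The remaining strong pairs were E04F6.6 with pcrg-1 (382.4), spe-48 with Y51F10.11 (307.2), K01G5.10 with the threonine aspartase gene tasp-1 (285.2), B0495.9 with sre-1 (255.4), pvf-1, a PDGF-like growth factor gene, with Y39A3CL.7 (211.2), and fbxc-44 with C16A11.2 (192). At E04F6.6 and pcrg-1 the replicates had 152.6 and 206.1, at spe-48 126.1 and 178.5, and at K01G5.10 136 and 134.9.

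Lists of genes taken by symbol were counted over the divergent regions, beside 5% of all such regions. The symbols miss some genes of each kind, so the counts hold for the symbols and not for whole gene classes. Members in no list included glp-4, a valine-tRNA ligase by its product, C37C3.18, an initiation factor, and mog-5, a putative splicing factor. Cytosolic ribosomal protein genes, which encode the subunits of the ribosome, occurred in 46 regions, of which 6 held a site (13.0%, 6.12 to 25.7). Of these 6, 4 lay near a small RNA gene, ska-3 at 282 bp, rpl-7A at 362 bp, rpl-15 at 563 bp and rps-23 at 701 bp, where the median over all 86 sites was 39942 bp. With sites kept only over 500 bp from such genes, a setting added for this list after seeing the data, 4 of 46 remained (8.70%, 3.43 to 20.3), without ska-3 and rpl-7A. The 6 were rpl-15 with K11H12.8 (199.8), ska-3 with rps-12 (115.8), rps-19 with hsr-9 (112.7), rpl-20 with Y17G9B.5 (95.35), rps-23 with dpm-3 (83.25) and rpl-7A with set-21 (72.67). At rpl-15 the replicates had 73.56 and 133.1, and at rpl-7A 47.26 and 30.61. Only the first of the 6 was in the own thresholded lists of both replicates.

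Translation factor genes had 3 of 23 regions with a site, namely erfa-3 with math-33, eif-3.I with abtm-1 (106.2) and eif-3.D with R08D7.4 (94.98), the last 2 encoding subunits of initiation factor eIF3. Splicing and snRNP genes had 3 of 27, namely snr-1, the Sm D3 protein, with snx-13 (134.7), prp-19 with K10D2.5 (124.4), and the pair rsp-2 and rsp-1 (92.55), both SR protein genes. Respiration genes had 2 of 35, at ndua-2 and at atp-1, the alpha subunit of ATP synthase, with mcrs-1 (114.6). Aminoacyl-tRNA synthetases found by symbol, which leaves out glp-4, had 1 of 10, at ears-2. The intervals of these 4 lists were wide, for example 4.54 to 32.1 for the translation factors, and included 5%.

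Chaperone genes had 4 of 25 regions with a site (16%, 6.40 to 34.7), and vesicle traffic genes 4 of 28 (14.3%, 5.70 to 31.5). The latter count includes sec-61.B, which shares the prefix sec- but by its product is the protein transport subunit Sec61 beta. The interval without it was not computed. Core and linker histone genes, many of which stand in divergent pairs, had 1 of 32 (3.13%), at his-67 and his-68 (97.70). Histone genes have near-identical copies, as do F44E5.4 and F44E5.5, an hsp-70 pair with a site of 98.79, so reads there could belong to another copy. Chemoreceptor genes had 4 of 109 (3.67%, 1.44 to 9.06), and F-box, MATH and C-type lectin genes 3 of 112 (2.68%). No site was found in the 17 regions with collagen genes, the 13 with RNA polymerase and general factor genes, the 20 with cytochrome P450 or UGT genes, or the 6 with homeobox genes; the upper limits of these intervals were 18.4%, 22.8%, 16.1% and 39.0%. Mitochondrial ribosomal protein genes had 2 of 25 (8%), proteasome genes 1 of 20 (5%) and the symbols listed for DNA replication and the cell cycle 1 of 25 (4%). That 1 was cdk-9, which shares the prefix cdk- but was described above as the kinase that releases paused RNA polymerase II. Of the other lists, chromatin genes had 1 of 20, nuclear hormone receptors 1 of 15, kinesin, dynein and kinetochore genes 1 of 10, and zinc finger and other factors 1 of 6.

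The bases around the summits were looked at in windows of 201 bp. The median GC content was 44.3% at the 86 sites, 38.8% at candidates of the same regions outside the list and 33.3% at the midpoints of all 1720 gaps. It was higher at sites in promoters of a single gene (49.3%) and over all 935 sites (48.8%). CCGCCC, a GC-rich word searched on both strands like all others, occurred in 29 of the 86 windows (33.7%, 24.6 to 44.2). It occurred in 5.87% of the midpoint windows, 6.22% of the candidate windows and 18.7% of the windows at single-gene promoter sites. In 24 of the 29 it lay within 50 bp of the summit. Sites with it had a median signal of 156.3 and those without it 103.6. The share that GC content itself has in these counts was not tested.

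GCGCGC was found in 24.4% of the windows and 5.87% of midpoints, and GAGAGA in 25.6% and 13.8%. Single-gene promoter sites held them in 20.3% and 26.3%. Of the other words, GTGACG was in 6.98% of the windows and 4.77% of midpoints, and the rest had lower shares at the sites than at midpoints. The part that GC content has in these differences was not tested. TAATTA, the core recognised by many homeodomains, was in 3 of 86 windows (3.49%, 1.19 to 9.76) and in 13.1% of midpoints, and TATAAA in 11.6% and 27.8%. Single-gene promoter sites held these in 4% and 7.67%. TTTCAG, which matches the end of a worm intron, was in 22.1% of the windows, 38.3% of the candidate windows and 13.3% of single-gene promoter sites. TTTTTT was in 67.4% of the windows, 56.7% of the candidate windows and 71.8% of midpoints, but in 35.3% of single-gene promoter sites and 35.0% of all 935 sites. CACGTG, the E-box, occurred in 1 window, that of mlcd-1 and idhg-1, and in 4.01% of midpoints.

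A paired word was seen in the strongest windows and counted afterwards, so its count describes the windows it was read from. It consists of GCGGC followed after 4 bases by TTGC on either strand. It was present in 18 of the 86 windows (20.9%, 13.7 to 30.7), among them the 3 strongest, and every one of its copies nearest to the summit lay within 22 bp of it, with a median of 9.5 bp. Of the candidates in the same regions outside the list 6 of 1270 had it (0.472%), and of the midpoints of all 1720 gaps 17 (0.988%). Sites in promoters of a single gene had it in 17 of 300 windows (5.67%, 3.57 to 8.89), sites outside promoters in 7 of 528 (1.33%), and sites at small RNA genes in 0 of 331 (upper limit 1.15%). Windows of the same width around all 19973 protein-coding 5′ ends had it in 27 (0.135%).

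The spacing of its parts was then varied. The 4 bases belonged to the word as it was read, so a higher share at 4 in these windows follows in part from that choice. With 0 to 3 or 5 to 12 bases between them the same parts were found in at most 5.81% of the 86 windows, which was the value at 2 bases, and in none at 5, 6 or 7 bases. Single-gene promoter sites held the parts with 3 bases between them in 12 of 300 windows (4%), beside 17 with 4 bases. Sites outside promoters held them in 7 of 528 windows at 4 bases and in 7 at 11 bases. Of the 41 copies with 4 bases in divergent regions, 21 had a site summit within 100 bp (51.2%, 36.5 to 65.8). In promoters of a single gene it was 17 of 194 copies (8.76%, 5.54 to 13.6), and outside promoters 7 of 582 (1.20%). By region, 19 of the 39 divergent regions with a copy held a site (48.7%, 33.9 to 63.8) and 67 of the 1681 without one (3.99%, 3.15 to 5.03). The counts in divergent regions include the windows from which the word was read, and are descriptions only.

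**Figure D4:**
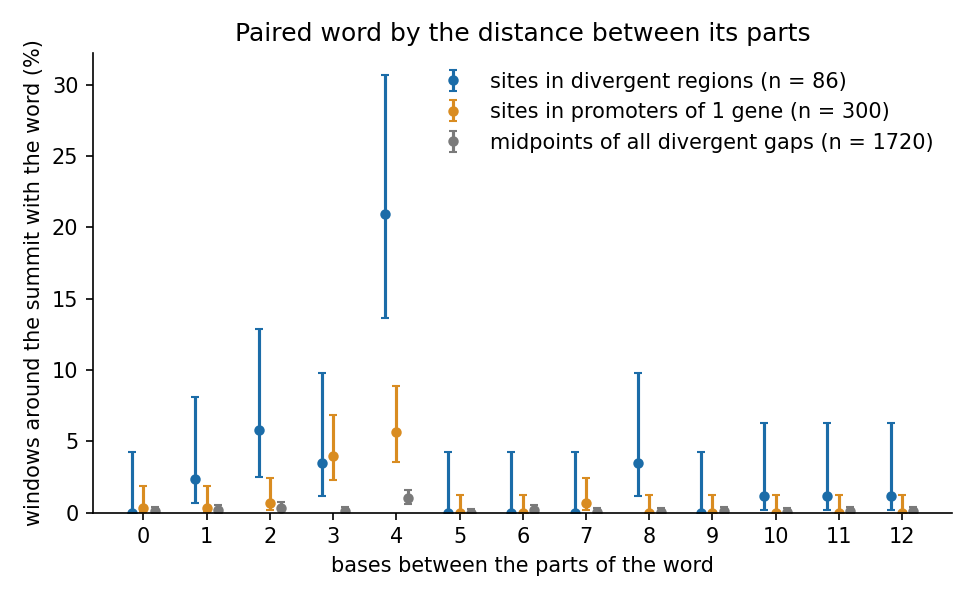
Share of 201 bp windows (%) that hold both parts of the paired word, against the number of bases between them, for sites in divergent regions, sites in promoters of 1 gene and midpoints of all divergent gaps. Bars are 95% Wilson intervals; at 4 bases the shares are 20.9%, 5.67% and 0.988%.

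Since the paired word was read from the strongest windows, the signal of the sites that hold it follows in part from that choice and is given as a description. Their median was 199.4 (69.90 to 491) against 106.1 (61.25 to 382.4) for the 68 without it. In the own thresholded lists of both replicates were 14 of the 18 and 16 of the 68. The 18 included gei-6 with krr-1, Y22D7AL.10 with hsp-60, pvf-1, mig-22, fbxc-44, dvc-1, haf-6, rpn-7, erfa-3 and mrg-1. The other members with it were spe-48, dnj-29, mel-46 with lsy-13 (118.3), fbxl-3 with mog-5 (95.34) and mrps-34 with cisd-3.1 (69.90). The strongest site without it was E04F6.6 with pcrg-1.

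The replicates were compared site by site. In the ranked lists of the single replicates 84 of the 86 were found in both (97.7%), as were 920 of all 935 sites (98.4%). The other 2, at erfa-3 with math-33 and at T26A8.4 with pdtf-1, were found in replicate 1 only. The signals of the 84 ranked alike (Spearman's rho 0.67, Pearson's r 0.92, n = 84 sites of 2 libraries, as a description). The IDR that set the list's threshold favours peaks that rank alike, so such agreement may follow in part from the list. Spearman's rho was 0.32 for single-gene promoter sites, 0.12 for sites outside promoters and 0.26 for all sites kept, and Pearson's r was 0.82, 0.74 and 0.82. At the 84 sites replicate 1 had a median of 49.4 and a range of 32.87 to 232.5, and replicate 2 a median of 61.7 and a range of 29.39 to 276.3. Replicate 2 was the higher at 63 of the 84 sites (75%), but at 141 of 294 single-gene promoter sites (48.0%) and at 38.8% of the sites outside promoters.

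The thresholded lists of the single replicates were shorter. Of the 86 sites 30 (34.9%) were in both of them, 35 in that of replicate 1 and 57 in that of replicate 2, and 24 (27.9%) in neither. Among single-gene promoter sites 47 of 300 were in both (15.7%) and 58.3% in neither.

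**Figure D5:**
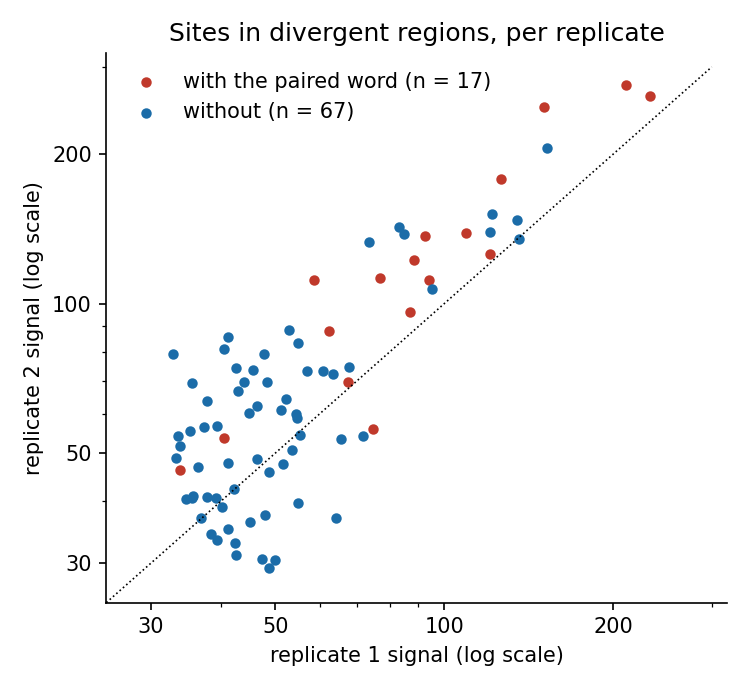
Signal of the 84 divergent-region sites found in both replicates, replicate 1 against replicate 2 (log scales), with sites that hold the paired word in red and the line of equal values dotted. Most points lie above the line (63 of 84), and the red points reach the upper right.

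The strongest divergent-region candidates that were not in the conservative list had signals within the range of the members. They lay at rps-20 with ekl-4 (103.9), Y62E10A.20 with Y62E10A.23 (91.73), T10B5.4 with cct-7 (90.45), epc-1 with Y111B2A.12 (83.96) and lin-53 with nra-2 (82.07). Here rps-20 encodes a ribosomal protein, cct-7 a subunit of the cytosolic chaperonin and lin-53 a histone-binding protein. Their −log10 global IDR ran from 0.306 to 1.96. All but the one at epc-1 were in the authors' other thresholded list, which also held 75 of the 86 members. A further 3 sites of divergent regions lay within 200 bp of a small RNA gene and were left out; their median signal was 411.4.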

How the data were processed

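Gene pairs came from Ensembl release 115 on WBcel235, the same assembly as ce11, and product names and DNA from RefSeq. Coordinates are 1-based. Peak lists were on ce11, per the labels. Neither aligner nor peak caller is named in the sources used here. The authors' lists give each peak a signal, a score that falls with the IDR and, as other values, the offset of its summit. A column of the deposited ranked lists holds the global IDR as −log10. The 1313 nuclear peaks of the conservative list were merged where they shared at least 1 bp into 1266 sites that kept the strongest peak's signal and summit; 331 sites at small RNA genes were left out. Signals per replicate were read from the strongest overlapping peak of its own ranked list. Python 3.11.15, pandas 2.3.3, numpy 2.4.6 and scipy 1.17.1 were used, and the rules were checked on toy genes and peaks with known answers. Each replicate's own list, the authors' other list and other limits served as alternatives. The text names the 30 strongest divergent-region sites, the members of 6 gene lists and the 5 strongest divergent-region candidates outside the list. Some symbols that only share a list's prefix were removed by name after the counts were seen. Others stayed in, among them cdk-9 and sec-61.B. The members, lists and words were chosen with earlier results of these data known. The replicate numbers only name the samples.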

Additional observations from a re-analysis of the deposited data

How the results depend on the processing

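The count of 86 divergent regions with a site, their 9.20% of sites, the 6.34% of their candidates in the list and the median signal of 114.1 were recomputed under the alternatives; values within 1.5 times (the count) or inside the 95% interval are not listed. Without replicate 1 or replicate 2 the count was 36 to 67, the share of sites 15.95% to 16.44% and the share of candidates 2.655% to 4.941%; signals of single replicates are on another scale, so the median was not recomputed there. A global IDR of at most 0.001 gave 34, 22.82%, 2.507% and 199.6. Gaps up to 500 bp gave 50, 5.348% and 8.157%, and gaps up to 2000 bp 11.55% and 4.536%. With no bases added to the gap the share of candidates was 9.587%, and with 500 bp added 4.019%. With sites at small RNA genes kept, the share of sites was 7.03%. In each setting the share of divergent regions with a site exceeded that of tandem regions, furthest at the strict IDR (1.98% against 0.234%) and least at gaps up to 2000 bp (4.21% against 1.41%), as a ratio. As above, a site lying in both kinds of region counted as divergent only. No paired analysis was possible because the study has 1 group and no contrast. Each of these settings changes which sites or regions are counted. Read depth, a control sample and the identity of the tagged protein limit all values.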
